A study of Homo sapiens with 9 samples.

Results

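The genes described here are the metalloproteinases that cut the extracellular matrix and the cell surface, together with their tissue inhibitors, in MDA-MB-231 cells treated with a peptide that blocks SIN3. They are 64 of the 18417 genes measured, taken by symbol as every MMP, ADAM, ADAMTS or TIMP gene with a number that lies on a probe of a single gene. They comprise 22 MMP genes, 21 ADAM genes, 17 ADAMTS genes and 4 TIMP genes. No measured value was used to choose them, although the choice was made with earlier results of these arrays known. The 64 genes lie on 66 probes, since MMP16 and TIMP3 have 2 probes each, and for those the probe with the higher mean is given. ADAM5 and ADAM6 are annotated as transcribed pseudogenes in human.

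MDA-MB-231 is an established human triple-negative breast cancer line, of mesenchymal form, which lacks the oestrogen and progesterone receptors. Cells were grown for 24 h with 2.5 µM SID peptide, which copies the SIN3 interaction domain and occupies the PAH2 pocket of SIN3A, with the scrambled peptide (SCR), or without peptide (UT). The labels give 3 arrays to each group and call them independent replicates, which makes 9 Affymetrix gene arrays of a single line. SID against SCR asks what blocking the pocket does, and SCR against UT asks what a peptide without the SID order does. Values are log2 signals, so a difference of 1 is a doubling, and the arrays carry no call of presence, so a low signal cannot be told apart from no expression.

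Matrix metalloproteinases are zinc enzymes made as inactive proenzymes. They are secreted or held at the cell surface, and between them they cut collagens, gelatin, laminin and proteoglycans. ADAMs are membrane proteins that release the outer part of receptors, adhesion molecules and growth factors, whereas ADAMTS enzymes are secreted and cut procollagens and large proteoglycans. TIMPs are small proteins that bind the active site of these enzymes. In carcinomas the balance of the families at the cell surface bears on invasion, with MMP14 on the invading edge of the cell as the best known example. The study measured MMP14 and MMP9 by qRT-PCR among targets of the Wnt pathway. In this line it reported both as lower with SID than with SCR, at the dose and time given above.

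The promoters of 37 of the 64 genes were in the RefSeq table used here (GRCh38.p14). Of these, 5 are shown as the 250 bases before the transcription start, 5′ to 3′ on the strand of the gene. MMP14 and ADAM8 are shown because their signals differed most between arrays among the MMP and ADAM genes, ADAMTS6 and ADAMTS3 because they stood on opposite sides of the SID against SCR comparison, and MMP7 because it was the only gene of the 37 with the AP-1 word. Capitals mark matches, on either strand, to the AP-1 word TGAGTCA, the TCF words CCTTTGAA, CCTTTGAT, CCTTTGTA and CCTTTGTT, the TGIF word CTGTCA and the GC box GGGCGG. These words do not overlap each other in the promoters shown.
MMP14 promoter, chr14:22836335-22836584, plus strand: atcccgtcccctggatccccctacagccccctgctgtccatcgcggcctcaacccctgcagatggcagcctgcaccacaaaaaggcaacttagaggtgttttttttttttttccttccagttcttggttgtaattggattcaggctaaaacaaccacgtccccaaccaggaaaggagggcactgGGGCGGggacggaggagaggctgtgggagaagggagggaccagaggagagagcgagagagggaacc
ADAM8 promoter, chr10:133276869-133277118, minus strand: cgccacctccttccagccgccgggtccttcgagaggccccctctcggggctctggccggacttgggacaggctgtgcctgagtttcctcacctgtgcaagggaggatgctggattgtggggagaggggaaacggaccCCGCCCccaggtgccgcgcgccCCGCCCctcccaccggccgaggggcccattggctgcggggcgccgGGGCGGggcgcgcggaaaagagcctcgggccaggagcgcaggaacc
ADAMTS6 promoter, chr5:65481921-65482170, minus strand: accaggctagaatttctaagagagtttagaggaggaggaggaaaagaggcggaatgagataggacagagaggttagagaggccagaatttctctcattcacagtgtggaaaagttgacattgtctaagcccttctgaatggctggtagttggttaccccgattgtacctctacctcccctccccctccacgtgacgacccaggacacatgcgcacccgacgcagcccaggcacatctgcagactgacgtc
ADAMTS3 promoter, chr4:72569222-72569471, minus strand: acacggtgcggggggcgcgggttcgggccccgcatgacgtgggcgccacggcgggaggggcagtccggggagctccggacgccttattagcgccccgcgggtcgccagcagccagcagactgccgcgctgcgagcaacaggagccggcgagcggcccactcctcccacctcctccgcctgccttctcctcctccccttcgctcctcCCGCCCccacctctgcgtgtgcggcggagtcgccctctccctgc
MMP7 promoter, chr11:102530748-102530997, minus strand: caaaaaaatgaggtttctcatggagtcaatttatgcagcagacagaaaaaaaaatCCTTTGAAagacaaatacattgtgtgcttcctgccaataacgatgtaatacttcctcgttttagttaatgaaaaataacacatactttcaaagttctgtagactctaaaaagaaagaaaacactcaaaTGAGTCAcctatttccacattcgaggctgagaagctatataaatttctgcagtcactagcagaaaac

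The MMP14 promoter held 1 GC box, the ADAM8 promoter 3, the ADAMTS3 promoter 1 and the ADAMTS6 promoter none of the words. MMP7 held the AP-1 word at -67 and a TCF word at -195, counted from the start. Over the same window, the GC box was in 24 of the 37 metalloproteinase and TIMP promoters, against 42.6% of all 35116 promoters, and the TGIF word in 4 (ADAM21, ADAM29, ADAMTS12 and MMP8), against 13% of all. The TCF words were in 3 (ADAM30, MMP21 and MMP7), against 3.68% of all, and the AP-1 word in 1, against 4.2% of all. A match is a run of letters and says nothing of binding.

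The 9 arrays did not fall by group. Replicates 1 and 2 of SID and of SCR, 4 arrays, correlated with each other at 0.963 to 0.995 over all tested probes. Replicate 3 of both peptides and the 3 UT arrays, 5 arrays, correlated with each other at 0.993 to 0.997, and arrays of different sets only at 0.908 to 0.929. The first principal component held 78.5% of the variance. The labels give no batch. The titles of the 3 UT arrays carry a (2) that no peptide title has, and its meaning is not given. A supplementary heading gives SCR replicate 3 another time than the 24 h of the labels. Because no UT array lay with replicates 1 and 2, what sets these 4 arrays apart cannot be told apart from a peptide effect that replicate 3 did not show. Of the 10 markers of breast cancer cells examined, EPCAM (9.74 to 10.94 in the 4 arrays, 6.14 to 6.87 in the 5), CD44 (13.17 to 13.26 and 10.68 to 10.84) and GATA3 (8.74 to 10.05 and 7.12 to 7.54) were higher in the 4 arrays by more than 1 log2 without overlap. CDH1 met the same rule, with a mean difference of 2.04 that came mainly from SCR. It was at 7.05 and 7.26 on SID replicates 1 and 2 and at 10.13 and 11.08 on SCR replicates 1 and 2, against 6.73 to 6.91 on the 5 arrays. The epithelial keratin KRT8 lay the other way (12.74 to 13.57 in the 4 arrays, 13.68 to 13.98 in the 5, mean difference -0.68), as did KRT18 (12.32 to 13.38 and 13.29 to 13.67, mean difference -0.71), whose sets overlapped. The mean of the 10 markers was 9.93 to 10.82 in the 4 arrays and 9.33 to 9.39 in the 5. VIM, the intermediate filament of mesenchymal cells, was at 12.75 to 13.34 on all 9 arrays, and the receptor genes ESR1 (6.76 to 7.23) and PGR (5.61 to 5.75) varied by less than 0.5. Because whole cultures were measured, more cells of a kind and more RNA per cell cannot be told apart. The part of these differences in the results below was not tested, and each result is given over all 9 arrays and by replicate.

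Over all 9 arrays, none of the 64 genes differed between SID and SCR in limma's test with Benjamini-Hochberg adjustment over 19460 probes (adjusted p under 0.05 and a log2 difference past 1). The same was true of SID against UT and SCR against UT. Of all probes tested, 0% passed in each of the 3 comparisons, and the lowest adjusted p of any probe was 0.657, 0.388 and 0.332 in that order. At an unadjusted p under 0.05, SID was higher than SCR for 4 of the 64 genes, against 4.53% of all probes, and lower for 4, against 3.05%. The genes were ADAM21, ADAMTS14, ADAMTS6 and MMP11 on the higher side, and ADAM23, ADAMTS3, MMP16 and MMP8 on the lower. A t-test with the same adjustment also passed 0 of the 64. The methods name a t-test for comparing 2 groups, but used another tool for the arrays. At its unadjusted p it gave 2 higher (ADAM21 and ADAMTS6) and 0 lower, against 1.5% and 0.447% of all probes.

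The 2 array sets hold different SID against SCR differences. These sets were seen in the same data, so the fits along them are a description. With replicates 1 and 2 alone, limma on the 4 arrays passed 3 of the 64 genes. ADAM8 and ADAMTS6 were higher with SID, which is 3.12% of the genes against 1.77% of all probes, and MMP16 was lower, 1.56% against 2.64%. Without the fold limit, 6 genes were higher (ADAM8, ADAM10, ADAMTS6, ADAMTS14, MMP11 and TIMP2), against 6.2% of all probes, and 2 were lower (MMP16 and ADAMTS3), against 7.38%. In shares of the 64 genes these are 9.38% and 3.12%. In a fit to all 9 arrays with a mean for each group and array set, the same 3 genes passed within replicates 1 and 2, against 1.95% of all probes on the higher side and 3.31% on the lower. In replicate 3, no gene of the 64 differed by more than 1 log2, against 0% of all probes on the higher side and 0.293% on the lower, and the differences ran from -0.30 to 0.38. The difference in replicates 1 and 2 was unlike that in replicate 3 (interaction, adjusted p under 0.05 in limma) for 5 genes on the higher side, against 2.79% of all probes, and for 2 on the lower, against 4.71%. With the fold limit these were 2 (ADAM8 and ADAMTS6) and 1 (MMP16), against 1.72% and 3.15%. The plot of replicate 3 against replicates 1 and 2 shows the genes spread mainly along the axis of replicates 1 and 2.

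**Figure D1:**
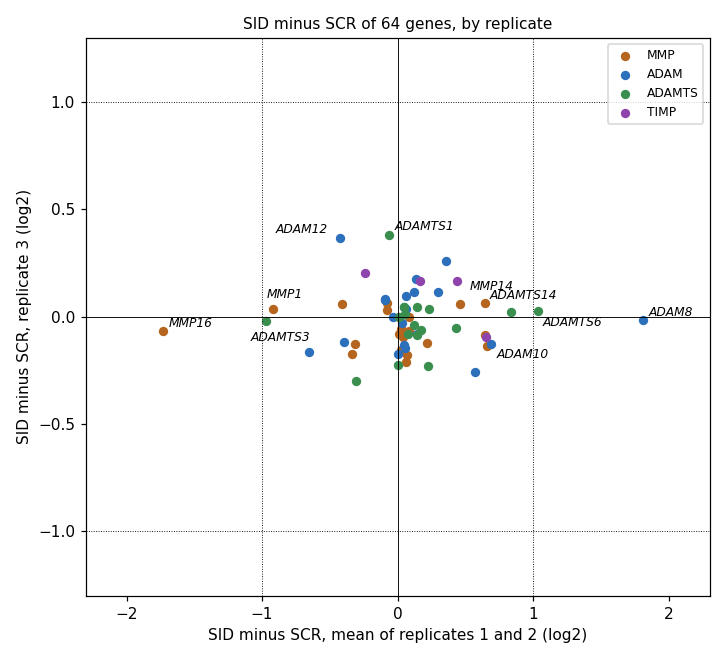
SID minus SCR log2 differences of the 64 genes, with the mean of replicates 1 and 2 on the horizontal axis and replicate 3 on the vertical axis. Each point is a gene coloured by family, and dotted lines mark 1 log2. ADAM8 (1.81) and MMP16 (-1.73) lie far out along the horizontal axis, while all 64 genes stay between -0.30 and 0.38 on the vertical axis.

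The median difference of the 64 genes, SID minus SCR over 3 replicates, was 0.04 log2, against 0.02 over all probes, with 38 genes higher and 26 lower, against 55.2% and 44.8% of all probes. The mean difference was past 1 log2 for ADAM8 on the higher side, against 0.545% of all probes, and for MMP16 on the lower, against 1.07%. By family the medians were 0.05 for ADAM, 0.07 for ADAMTS, -0.01 for MMP and 0.26 for the 4 TIMP genes. In replicates 1 and 2, SID and SCR did not overlap for 25 genes on the higher side, against 32.6% of all probes, and for 12 on the lower side, against 26.3%. Over all 3 replicates they did not overlap for 4 on the higher side (ADAM21, ADAM29, ADAMTS6 and MMP24), against 4.01% of all probes. On the lower side this held for ADAMTS3 alone, against 1.65%. ADAM29 had low signals of 5.15 to 5.40 on all arrays. The sign was the same in each of the 3 replicates for 12 genes higher with SID and 6 lower, against 17.8% and 8.94% of all probes.

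The membrane-type MMPs gave both the gene with the greatest range over the arrays and the one with the most negative SID minus SCR difference. MMP14, which cuts collagen at the cell surface and helps to activate pro-MMP2, had signals of 11.97, 12.23 and 7.38 on the SID arrays, of 11.18, 11.74 and 7.31 on the SCR arrays, and of 7.25, 7.67 and 7.26 on the UT arrays. Replicates 1 and 2 of both peptides were thus high and the other 5 arrays low. SID was above SCR by 0.80, 0.49 and 0.07 in replicates 1, 2 and 3. The mean difference of 0.45 (SE 1.54, adjusted p 0.983 in limma on 9 arrays) was well inside the spread, and in replicates 1 and 2 alone it was 0.64 (SE 0.22, adjusted p 0.14 in limma). The difference of the group means was -0.27 without SID replicate 1, -0.40 without SID replicate 2 and -0.93 without SCR replicate 3. Leaving out 1 array makes the array sets unequal between the groups. Such values, here and below, therefore also hold the gap between the sets.

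MMP16, another membrane-anchored MMP, had 6.15, 5.90 and 5.77 on the SID arrays, 7.84, 7.67 and 5.84 on the SCR arrays, and 5.55, 5.88 and 5.81 on the UT arrays. Only SCR replicates 1 and 2 stood high, while SID replicates 1 and 2 lay just above the highest UT array. Over 9 arrays the difference was -1.18 (SE 0.48, adjusted p 0.657 in limma). Within replicates 1 and 2 it was -1.73 (SE 0.13, adjusted p 0.0161 in limma on 4 arrays), a signal 3.32-fold lower with SID, and in replicate 3 it was -0.07. Leaving out SCR replicate 3 made the difference -1.81 with an adjusted p of 0.00383 in limma. SCR then holds replicates 1 and 2 only and SID all 3, so this value also holds the gap between the array sets. The other probe of MMP16 gave -1.56, -2.16 and -0.06 in the 3 replicates.

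Of the other membrane-bound MMPs, MMP15 was at 8.37, 8.59 and 8.57 with SID, at 7.55, 8.09 and 8.70 with SCR, and at 9.20, 9.06 and 9.07 without peptide. All 6 peptide arrays were below all UT arrays, and SID was above SCR in replicates 1 and 2 by 0.66 on average (adjusted p 0.122 in limma on 4 arrays). MMP24 was above SCR on each SID array, with differences of 0.29, 0.63 and 0.06. MMP17 and MMP25 stayed within 0.55 and 0.40 log2 over the 9 arrays.

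Among the secreted MMPs, MMP1, the interstitial collagenase, differed mainly between the array sets. Its signals were 10.76, 8.18 and 6.06 with SID, 10.69, 10.08 and 6.02 with SCR, and 6.01, 6.39 and 6.11 without peptide. SID and SCR differed by 0.06, -1.90 and 0.04, so a single pair gave the mean of -0.60 (SE 1.46, adjusted p 0.967 in limma), and the mean was 0.54 without SID replicate 3 and 0.28 without SCR replicate 1. MMP1 lies in a run of 9 neighbouring MMP genes on chromosome 11 with no other protein-coding gene between them. Of the 9, 5 (MMP20, MMP27, MMP10, MMP3 and MMP12) varied by less than 0.5 log2 over the 9 arrays, and MMP1 alone varied by more than 2. MMP7, the matrilysin whose promoter is shown above, had 6.68, 6.39 and 7.41 with SID, 6.31, 6.33 and 7.53 with SCR, and 6.89, 6.98 and 7.17 without peptide, low on the 4 arrays of replicates 1 and 2.

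MMP9, the gelatinase that cuts basement membrane collagen, had 7.52, 7.51 and 7.40 with SID, 7.62, 8.04 and 7.52 with SCR, and 7.44, 7.55 and 7.44 without peptide. SID was below SCR in each replicate, with differences of -0.10, -0.53 and -0.12, and the SID and UT arrays overlapped. The difference of -0.25 (SE 0.13, adjusted p 0.689 in limma on 9 arrays) did not pass. MMP2, the other gelatinase, ran from 6.57 to 6.91 over all arrays. MMP11, stromelysin-3, which is activated inside the cell by furin, had 8.74, 8.81 and 8.42 with SID, 8.14, 8.12 and 8.50 with SCR, and 8.60, 8.83 and 8.66 without peptide. Here SCR replicates 1 and 2 were the low arrays, and SID replicates 1 and 2 lay among the UT arrays. Within replicates 1 and 2 the difference was 0.64 (SE 0.08, adjusted p 0.0226 in limma on 4 arrays), and over 9 arrays 0.40 (adjusted p 0.657 in limma). MMP13 and MMP8, both collagenases, had low signals on all arrays, at 5.40 to 6.10 and 4.81 to 5.41. SID differed from SCR by -0.41 and -0.33 for them in replicates 1 and 2 (adjusted p 0.126 and 0.0747 in limma on 4 arrays). MMP19 had a mean SID minus SCR difference of 0.00, with 7.36 to 7.55 on the 4 arrays and 6.58 to 6.95 on the 5. MMP21, MMP26 and MMP28 each stayed within 0.38 log2.

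**Figure D2:**
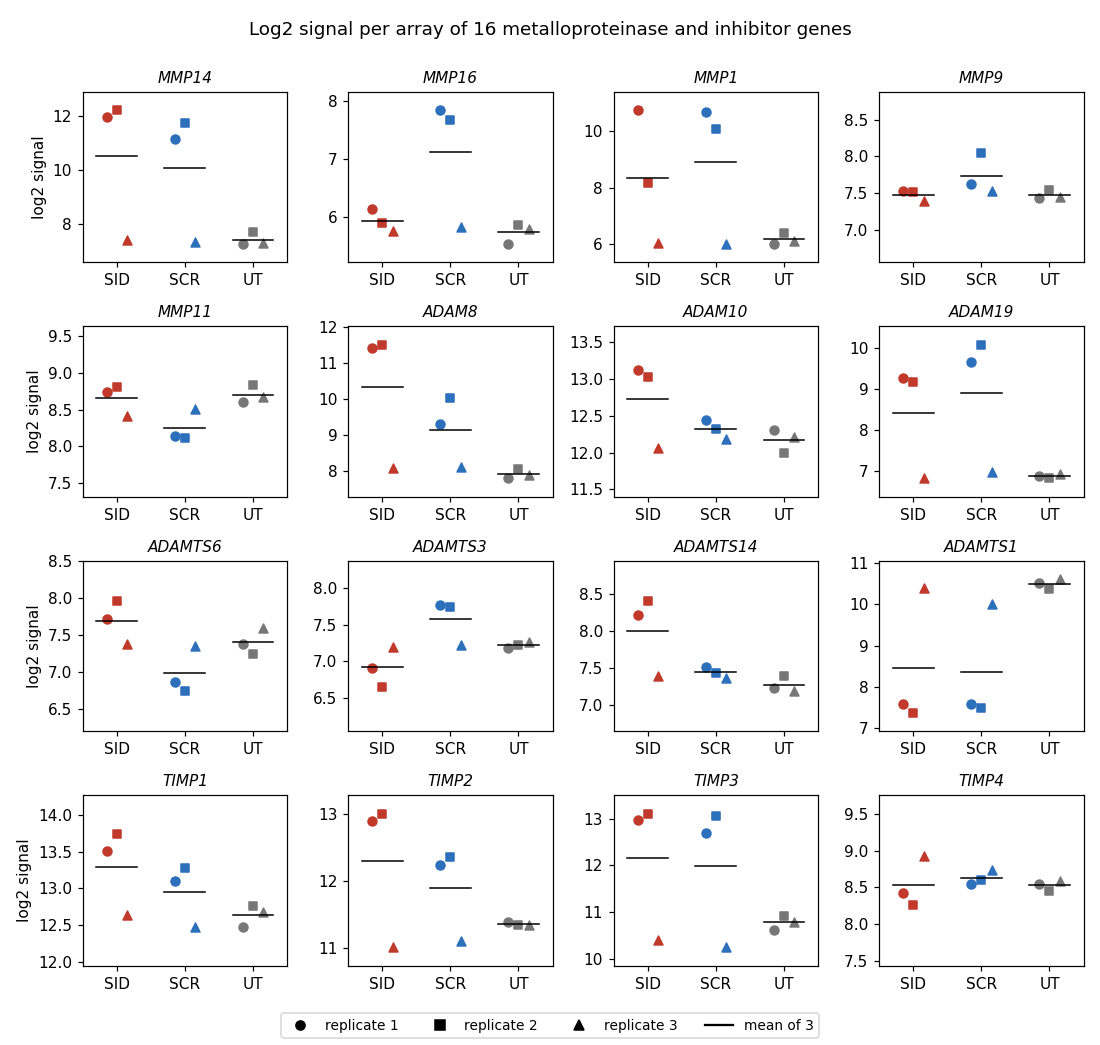
Log2 signal on each array of 16 genes, with SID, SCR and UT from left to right in each panel, symbols for the replicate and a line for the mean of 3. Each panel has its own vertical axis. For MMP14 the circles and squares of SID and SCR lie between 11.18 and 12.23 and all other points between 7.25 and 7.67, whereas for MMP16 only the SCR circle and square (7.84 and 7.67) stand high.

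ADAM8, a sheddase of leukocytes that tumour cells also make, gave the greatest positive difference of the 64 genes. It had 11.44, 11.52 and 8.10 on the SID arrays, 9.32, 10.03 and 8.12 on the SCR arrays, and 7.80, 8.06 and 7.89 on the UT arrays. The arrays thus formed steps, with SID replicates 1 and 2 above SCR replicates 1 and 2, and those above the other 5. SID exceeded SCR by 2.12 and 1.49 in replicates 1 and 2, and the difference was -0.02 in replicate 3. The mean was 1.20 (SE 0.92, adjusted p 0.787 in limma on 9 arrays), and 1.81 (SE 0.25, adjusted p 0.0262 in limma on 4 arrays) in replicates 1 and 2 alone, or 3.50-fold. Leaving out SID replicate 3 gave 2.33 with an adjusted p of 0.0296 in limma. SID then holds replicates 1 and 2 only and SCR all 3, so this value also holds the gap between the array sets.

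ADAM10, the protease that cuts Notch and cadherins, had 13.12, 13.02 and 12.06 with SID, 12.44, 12.32 and 12.18 with SCR, and 12.31, 12.00 and 12.21 without peptide. Only SID replicates 1 and 2 stood above the rest. The difference of 0.69 in these replicates (SE 0.09, adjusted p 0.0254 in limma on 4 arrays) fell short of the fold limit, and over 9 arrays the difference was 0.42 (adjusted p 0.732 in limma). ADAM17, which releases TNF and ligands of the EGF receptor, stayed between 10.29 and 10.73 on all arrays. ADAM9, a broad sheddase, was 0.30 above SCR in replicates 1 and 2 (adjusted p 0.138 in limma on 4 arrays), and ADAM15 was within 0.47 log2 throughout.

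ADAM19, which can release neuregulins, had the opposite sign. Its signals were 9.28, 9.17 and 6.81 with SID, 9.66, 10.09 and 6.97 with SCR, and 6.86, 6.82 and 6.92 without peptide. SID was lower in each replicate, with differences of -0.38, -0.92 and -0.16 and a mean of -0.49 (SE 0.92, adjusted p 0.948 in limma on 9 arrays). The sign of that mean turned without SID replicate 3 (0.32) and without SCR replicate 2 (0.10), where the groups hold the array sets unequally. In replicates 1 and 2 alone the difference was -0.65 (adjusted p 0.0783 in limma). ADAM23, a family member without protease activity, was lower with SID in each replicate and below UT on all 6 peptide arrays, at 6.06 to 6.54 with SID, 6.52 to 6.66 with SCR and 6.88 to 7.11 without peptide.

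ADAM21 had 6.03, 6.17 and 6.16 with SID, 5.85, 5.63 and 5.89 with SCR, and 6.66, 6.56 and 6.59 without peptide. The 3 groups did not overlap, with UT highest and SCR lowest. SID was 0.33 above SCR (SE 0.09, adjusted p 0.657 in limma on 9 arrays). ADAM12 and ADAM28 followed the array sets and are given below. The testis genes ADAM2, ADAM18, ADAM20, ADAM29, ADAM30 and ADAM32, with the pseudogenes ADAM5 and ADAM6, had ranges of 0.08 to 0.27 log2 over the 9 arrays. ADAM11, ADAM22 and ADAM33 had ranges of 0.36, 0.83 and 0.48.

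The procollagen N-proteinases of the ADAMTS family, which trim fibrillar procollagens, gave differences of opposite sign. ADAMTS14 had 8.21, 8.40 and 7.39 with SID, 7.51, 7.43 and 7.36 with SCR, and 7.23, 7.39 and 7.19 without peptide, so that SID replicates 1 and 2 stood alone. Its difference in these replicates was 0.84 (SE 0.10, adjusted p 0.0226 in limma on 4 arrays). ADAMTS3 had 6.91, 6.65 and 7.20 with SID, 7.77, 7.74 and 7.22 with SCR, and 7.18, 7.22 and 7.27 without peptide. SID replicates 1 and 2 were below UT and SCR replicates 1 and 2 above it, and the difference was -0.97 (SE 0.12, adjusted p 0.0221 in limma on 4 arrays). ADAMTS2 was 0.22 above SCR in replicates 1 and 2 (adjusted p 0.293 in limma on 4 arrays). Over 9 arrays the differences were 0.56 for ADAMTS14 and -0.65 for ADAMTS3, each with an adjusted p of 0.657 in limma.

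ADAMTS6, a secreted relative of ADAMTS10, had 7.71, 7.96 and 7.38 with SID, 6.86, 6.74 and 7.35 with SCR, and 7.38, 7.24 and 7.60 without peptide. SID was above SCR in each replicate, by 0.85, 1.23 and 0.03, without overlap, but SID replicates 1 and 2 lay above UT and SCR replicates 1 and 2 below it. The difference was 1.04 in replicates 1 and 2 (SE 0.12, adjusted p 0.0216 in limma on 4 arrays, 2.05-fold) and 0.70 over 9 arrays (SE 0.21, adjusted p 0.657 in limma). ADAMTS10 itself was at 8.17, 8.26 and 8.40 with SID, 8.18, 7.92 and 8.47 with SCR, and 8.54, 8.68 and 8.61 without peptide, below UT on all 6 peptide arrays.

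The proteoglycan-cutting members ADAMTS1, ADAMTS5 and ADAMTS9 differed far more between the array sets than between the peptides. ADAMTS1 had 7.57, 7.37 and 10.40 with SID, 7.58, 7.49 and 10.02 with SCR, and 10.52, 10.37 and 10.61 without peptide. The difference over the groups was 0.08 and turned to -0.06 in replicates 1 and 2 alone. ADAMTS9 had 9.74, 8.93 and 6.32 with SID, 9.09, 8.72 and 6.37 with SCR, and 6.10, 6.11 and 6.12 without peptide. Its difference of 0.27 turned without SID replicate 1 (-0.43), without SID replicate 2 (-0.03) and without SCR replicate 3 (-0.57). In each case the groups held the array sets unequally. ADAMTS16 had a mean difference of -0.30, with 0.02, -0.63 and -0.30 in the 3 replicates. ADAMTS4, ADAMTS13, ADAMTS17, ADAMTS18, ADAMTS19 and ADAMTS20 had ranges of 0.11 to 0.40 log2 over all arrays, and ADAMTS8 had one of 0.60.

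**Figure D3:**
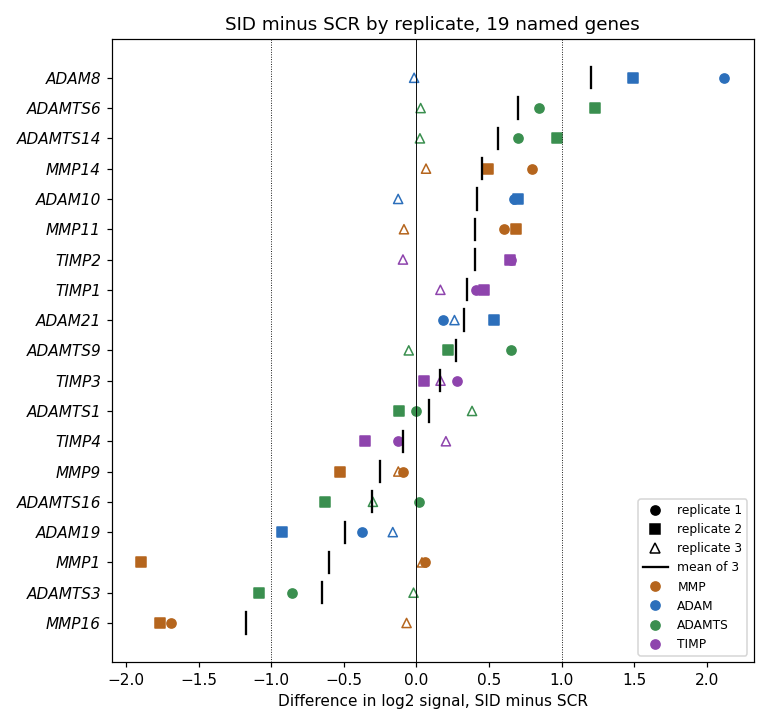
SID minus SCR differences in log2 signal of the 19 named genes, one row per gene in order of the mean, with replicates 1 and 2 as filled symbols, replicate 3 as an open triangle and the mean of 3 as a bar. Dotted lines mark 1 log2. ADAM8 lies at the top (2.12, 1.49 and -0.02) and MMP16 at the bottom (-1.69, -1.77 and -0.07), and the triangles all lie between -0.30 and 0.38.

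The inhibitors had small differences between the peptides. TIMP1, which inhibits most secreted MMPs, had 13.51, 13.74 and 12.64 with SID, 13.10, 13.28 and 12.47 with SCR, and 12.48, 12.77 and 12.68 without peptide. SID was higher in each replicate, by 0.41, 0.46 and 0.17 (mean 0.35, SE 0.31, adjusted p 0.835 in limma on 9 arrays). TIMP2, which inhibits MMPs and also links pro-MMP2 to MMP14, had 12.89, 13.01 and 11.00 with SID, 12.24, 12.36 and 11.10 with SCR, and 11.38, 11.34 and 11.33 without peptide. The pairs of replicates 1 and 2 differed by 0.65 and 0.64 and that of replicate 3 by -0.09. In replicates 1 and 2 the difference was 0.65 (SE 0.10, adjusted p 0.0292 in limma on 4 arrays), under the fold limit, and without SCR replicate 3 the difference of the group means was -0.001.

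TIMP3, which is bound to the matrix and also inhibits ADAM17, had 12.97, 13.11 and 10.41 with SID, 12.68, 13.06 and 10.24 with SCR, and 10.62, 10.92 and 10.79 without peptide. Its difference was 0.16 (adjusted p 0.549 in limma on replicates 1 and 2). The sign turned without SID replicate 1 (-0.24), without SID replicate 2 (-0.31) and without SCR replicate 3 (-0.71), where the groups hold the array sets unequally. The other probe of TIMP3 gave -0.46, 0.27 and 0.11 in the 3 replicates. TIMP4 had 8.42, 8.26 and 8.93 with SID, 8.55, 8.61 and 8.73 with SCR, and 8.54, 8.46 and 8.59 without peptide. Its groups overlapped, and the mean of -0.09 became 0.05 without SID replicate 2.

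The greatest differences among the 64 genes lay between the array sets. These 2 sets were seen in the data, so the values are a description. Replicates 1 and 2 of the peptides and the other 5 arrays did not overlap, with means more than 1 log2 apart, for 10 genes on the higher side, 15.6% against 5.9% of all probes, and for 3 on the lower side, 4.69% against 4.47%. The higher genes were MMP14 (by 4.41, or 21.2-fold), MMP1 (3.81), ADAMTS9 (2.92), ADAMTS12 (2.74), ADAM19 (2.67), ADAM8 (2.58), TIMP3 (2.36), ADAM28 (1.67), TIMP2 (1.40) and MMP16 (1.12). They span all families and include a protease of the cell surface, MMP14, with the inhibitor that partners it, TIMP2. For MMP16 only SCR replicates 1 and 2 stood high. Its SID replicates 1 and 2, at 6.15 and 5.90, lay just above the highest of the 5 arrays (5.88). ADAMTS12, which cuts cartilage oligomeric matrix protein, had 9.71, 8.92 and 6.55 with SID, 9.11, 9.06 and 6.51 with SCR, and 6.37 to 6.46 without peptide. ADAM28 had 8.19, 7.50 and 5.76 with SID, 7.15, 7.39 and 6.02 with SCR, and 5.83 to 5.94 without peptide.

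The 3 lower genes were ADAMTS1 (-2.88), ADAM12 (-1.76) and ADAMTS5 (-1.75). ADAMTS1 and ADAMTS5 are neighbours on chromosome 21 with no protein-coding gene between them. ADAMTS5, an aggrecanase, had 6.52, 6.56 and 7.82 with SID, 6.38, 6.41 and 7.90 with SCR, and 8.60, 8.12 and 8.65 without peptide. Replicate 3 of both peptides also lay below every UT array, which for ADAMTS1 held for SCR only. ADAM12, which sheds EGF family ligands, had 7.72, 7.57 and 9.92 with SID, 7.86, 8.27 and 9.55 with SCR, and 9.43, 9.48 and 9.72 without peptide.

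**Figure D4:**
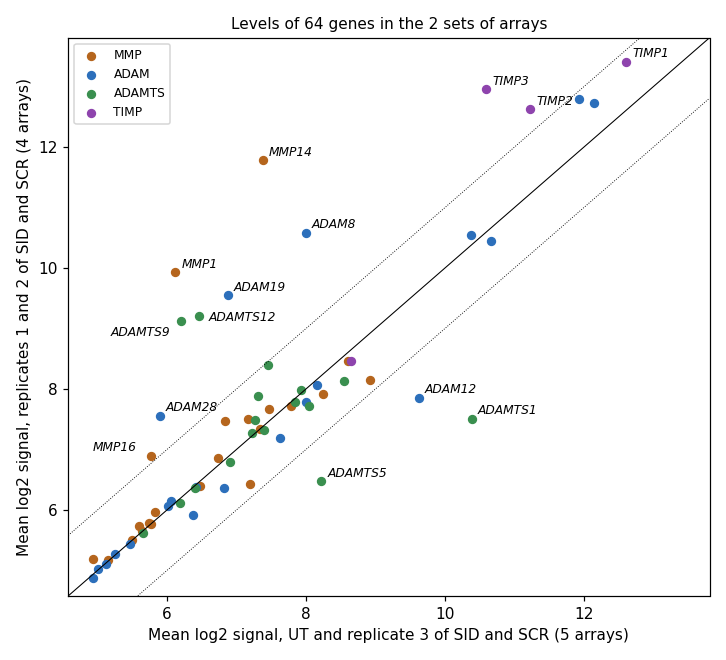
Mean log2 signal of the 64 genes on replicates 1 and 2 of SID and SCR (vertical axis, 4 arrays) against that on UT and replicate 3 of SID and SCR (horizontal axis, 5 arrays), coloured by family. The full line marks equal signal and the dotted lines 1 log2 to either side. MMP14, at a difference of 4.41, lies farthest above the line, and ADAMTS1, at -2.88, lies farthest below it.

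These sets shape the comparisons with UT, which share the UT arrays. The mean difference SID minus UT was past 1 log2 for 8 genes on the higher side, against 3.78% of all probes, and for 3 on the lower side, against 3.13%. SCR minus UT was past it for 8 genes, against 3.45%, and for 2, against 2.66%. MMP14 was 3.13 above UT with SID and 2.68 with SCR, MMP1 2.16 and 2.76, ADAM8 2.44 and 1.24, ADAM19 1.55 and 2.04, ADAMTS9 2.22 and 1.95 and ADAMTS1 -2.06 and -2.14. In replicate 3 alone no gene of the 64 was more than 1 log2 from the UT mean with either peptide, where the differences ran from -0.64 to 0.40 with SID and from -0.71 to 0.51 with SCR. At an unadjusted p under 0.05 in limma, SID was higher than UT for 4 genes and lower for 7, against 6.29% and 6.21% of all probes. SCR was higher for 5 and lower for 9, against 6.66% and 7.79%. The t-test gave at its unadjusted p 0 higher and 8 lower for SID, against 4.84% and 3.98% of all probes. For SCR it gave 1 higher and 9 lower, against 3.3% and 5.92%, and it passed 0 after adjustment. In replicate 3, at most 0.303% of all probes were more than 1 log2 from the UT mean in a direction.

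Over the 9 arrays 29 of the 64 genes varied by less than 0.5 log2, 11 by 0.5 to 1 and 24 by 1 or more, of which 13 varied by more than 2. For 12 genes the highest signal was under 6, and 6 of these were MMPs. The shares of all probes with such ranges or signals are not given here, so these counts cannot be read as particular to the 64 genes.

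Genes that act with these proteases were read from lists written with earlier results of these arrays known. None of them passed over 9 arrays. The counts of these lists stand beside the shares of all probes given above, 55.2% higher and 44.8% lower by the sign of the mean over 9 arrays, and 1.77% higher and 2.64% lower among the calls in replicates 1 and 2. Of 16 activators and restraints of MMPs measured, 10 were higher and 6 lower with SID, with a median difference of 0.15, and in replicates 1 and 2 alone SERPINE2, an inhibitor of thrombin and plasminogen activators, passed as lower. It had 9.20, 8.79 and 11.50 with SID, 10.39, 10.74 and 11.62 with SCR, and 11.42 to 11.68 without peptide (adjusted p 0.0226 in limma on 4 arrays). KLK6, a secreted serine protease, had 6.46, 6.40 and 6.42 with SID, against 7.60, 8.69 and 6.55 with SCR (adjusted p 0.0553 in limma on 4 arrays). Of the 9 partners of ADAM10 and ADAM17, 2 were higher and 7 lower, and none passed. RHBDF2, a carrier of ADAM17, differed by 0.43 and the ADAM10 partner TSPAN14 by -0.26.

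Of 25 measured proteins that ADAMs release from the surface, 10 were higher and 15 lower with SID (median -0.01), and 3 passed as lower in replicates 1 and 2, against 2.64% of all probes. CDH1, E-cadherin, had 7.05, 7.26 and 6.91 with SID and 10.13, 11.08 and 6.73 with SCR, against 6.81 to 6.89 without peptide, so that it stood high in SCR replicates 1 and 2 only, as MMP16 did. NRG1, a neuregulin, had 8.13, 7.05 and 6.09 with SID and 9.96, 10.04 and 6.02 with SCR, and CDH2, N-cadherin, had 7.30, 7.19 and 10.54 with SID and 9.31, 9.79 and 10.63 with SCR. Of 27 matrix substrates, 17 were higher and 10 lower (median 0.03). SPARC, a collagen-binding matrix protein, passed as lower in replicates 1 and 2, with 6.97, 7.12 and 7.57 with SID and 10.35, 11.12 and 7.56 with SCR. TNC, tenascin C, differed by -1.33 in these replicates (adjusted p 0.064 in limma on 4 arrays).

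A list of 7 relatives held ADAMTS-like proteins, which lack the protease domain, and ADAMDEC1, which is not one of them. Of the 7, 6 were higher and 1 lower (median 0.06). ADAMDEC1 counted as higher by 0.009 only, at low signals of 5.33 to 5.42 on all arrays. THSD4 passed as higher in replicates 1 and 2, with 9.73, 9.98 and 9.56 with SID, 8.67, 8.83 and 9.62 with SCR, and 10.02 to 10.06 without peptide, so that SCR replicates 1 and 2 were the low arrays. ADAMTSL4 had 8.96, 9.46 and 7.95 with SID, 7.92, 8.75 and 8.23 with SCR, and 8.46 to 8.71 without peptide (0.87 in replicates 1 and 2, adjusted p 0.168 in limma on 4 arrays). Of 18 inducers of MMP genes, 11 were higher and 7 lower (median 0.14), and RUNX2 and FOSL1 passed as higher in replicates 1 and 2, against 1.77% of all probes. RUNX2, which drives MMP13 in bone, had 11.53, 11.82 and 7.81 with SID, 9.98, 10.18 and 7.85 with SCR, and 7.78 to 7.98 without peptide, and FOSL1, an AP-1 subunit, had 12.26, 12.59 and 9.29 with SID, against 11.03, 11.33 and 9.31 with SCR. Both had the same 3 steps as ADAM8. Over all 10 cell markers, 2 were higher and 8 lower with SID (median -0.30). In replicates 1 and 2, CDH1 and GATA3 passed as lower, against 2.64% of all probes. GATA3 differed there by -1.03 (adjusted p 0.0393 in limma on 4 arrays), and EPCAM (-0.92, adjusted p 0.0385) and KRT18 (-0.95, adjusted p 0.0188) had adjusted p under 0.05 short of the fold limit. These markers thus differed between SID and SCR on the same 4 arrays as ADAM8, ADAMTS6 and MMP16, and their part in those differences was not tested.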

How the data were processed

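RNA of 9 MDA-MB-231 cultures was measured on Affymetrix Human Gene arrays. The authors deposited log2 values on a scale not stated and read from the values (3.75 to 14.94). The submitters' processing notes list RMA, Expression Console and, beside them, Transcriptome Analysis Console, all without versions. RMA brings arrays to 1 distribution (medians 7.68 to 7.77), so a change of total RNA cannot show. The study's own tool works on single probe signals and was not repeated. Its methods speak of 2 replicates, and a supplementary heading gives another time for SCR replicate 3 than the labels. The dose of SCR is given in the methods only.

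Of 33297 probes, 19460 had 1 gene symbol, 1754 several and 12083 none, and genes without a single-symbol probe were not analysed here. Of the 19460, 19429 were matched by Entrez ID, among them all 64 genes. Differences were fitted with lmFit and eBayes (limma 3.58.1, R 4.3.3) without filter over all 19460 probes, on all 9 arrays, with p adjusted by Benjamini-Hochberg. Genes counted as called where the adjusted p was under 0.05 and the difference exceeded 1 log2 in either direction. A fit with 5 means (SID and SCR each in replicates 1 and 2 and in replicate 3, and UT) gave the interaction. The scripts were tested on simulated data, which held no difference between the array sets and so do not show how the fits behave with that split. The number of arrays and the split between the array sets limit the precision: the SE of MMP14 was 1.54 over the 9 arrays and 0.22 with a mean for each set, and that of ADAM8 0.92 and 0.21. P-values measure the spread between these cultures of 1 line.

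SID and SCR share replicate numbers in the labels. Deviations from the group means correlated at 0.77, 0.57 and 0.79 for the same number. Differences by replicate were taken between arrays of the same number, which follows the labels only. The fits were unpaired, and the pairing entered only the replicate block. Unlike numbers within the array set correlated as well, SID 1 with SCR 2 at 0.75 and SID 2 with SCR 1 at 0.60. For replicates 1 and 2 the correlation thus shows the set and not the number. Replicate 3 is the only array of its set in each peptide group, so its 0.79 cannot tell set from number. UT numbers did not pair. Genes named are MMP14 and MMP9, which the study measured by qRT-PCR, MMP16, the TIMPs, every gene called, and in each protease family the 4 with the greatest SID minus SCR and the 2 with the greatest SCR minus UT difference. In each related list, the 2 with the greatest SID minus SCR difference are named. Other genes are given for their range or to complete a family. The genes, the lists and these rules were chosen with earlier results of these data known.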

Additional observations from a re-analysis of the deposited data

Results flagged for a closer look

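For 7 of the 64 genes the SID minus SCR difference in replicates 1 and 2 was unlike that in replicate 3 by a test of the difference itself, the interaction in limma's fit with 5 means (adjusted p under 0.05). These were 5 genes on the higher side, against 2.79% of all probes, and 2 on the lower side, against 4.71%. The interaction was 1.82 for ADAM8 (SE 0.36, adjusted p 0.0276 in limma), 1.01 for ADAMTS6 (SE 0.24, adjusted p 0.0491), 0.81 for ADAMTS14 (SE 0.19, adjusted p 0.0427), 0.74 for TIMP2 (SE 0.15, adjusted p 0.0315) and 0.73 for MMP11 (SE 0.17, adjusted p 0.0453). It was -1.66 for MMP16 (SE 0.24, adjusted p 0.0128 in limma) and -0.95 for ADAMTS3 (SE 0.18, adjusted p 0.0248). Replicate 3 has 1 array per peptide, so its spread was taken from the other arrays of the fit. The split between replicates 1 and 2 and replicate 3 was seen in these same data, so the interaction is a description and not independent support.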

How the results depend on the processing

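With the 9 arrays, 0 genes were called in any comparison. The count stayed 0 with the array set as a block (run for SID against SCR only). In all 3 comparisons it stayed 0 with the replicate block (the pairing by number) and with only the 6 arrays of the groups compared. It also stayed 0 in all 3 with quantile normalization or median centring, without dim probes and with the mean of a gene's probes. The same held with the t-test and with no fold limit. SID against SCR gave 2 higher and 1 lower with replicates 1 and 2 alone, and 2 and 1 within them in the fit with 5 means (ADAM8, ADAMTS6 and MMP16 in both). With array weights, whose estimate did not fully converge, it gave 1 higher (ADAM8, 1.96) and 1 lower (MMP16, -1.62), SID against UT gave 10 and 3, and SCR against UT 9 and 4. Leaving out 1 array gave 0 to 1 higher (ADAM8 without SID replicate 3) and 0 to 1 lower (MMP16 without SCR replicate 3) for SID against SCR. For SID against UT it gave 0 to 7 higher and 0 to 3 lower (7 and 3 without SID replicate 3). For SCR against UT it gave 0 to 3 higher and 0 to 2 lower (3 and 2 without SCR replicate 3). The shares of all probes called with array weights or without 1 array are not given here. These counts thus cannot be read as particular to the 64 genes. The median of the 64 genes, SID minus SCR, ran from -0.005 to 0.04 without single arrays. Of the settings tried on the named genes, 311 kept direction and side of the threshold, 10 passed it and 21 turned the sign. ADAMTS1 turned to -0.065 with replicates 1 and 2 alone and in the fit with 5 means and to -0.048 with array weights, and ran from -0.89 to 0.91 without single arrays. The other turns came from leaving out 1 array, over which the differences ran from -1.46 to 0.32 for ADAM19, -0.57 to 1.28 for ADAMTS9, -2.06 to 0.54 for MMP1, -0.93 to 2.03 for MMP14, -0.001 to 1.05 for TIMP2, -0.71 to 1.04 for TIMP3 and -0.29 to 0.05 for TIMP4. Which array is left out decides how many arrays of each set a group mean holds. Differences and counts without 1 array thus also hold the gap between the sets. With a single array of replicate 3 per peptide, a difference in that set has no replicate of its own.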
